A study of Mus musculus with 24 samples.

Results

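The Wnt pathway was followed in mouse dorsal skin through 50 genes. They are the genes whose symbol is Wnt, Fzd, Sfrp or Dkk followed by a digit, together with Lef1, Tcf7, Tcf7l1, Tcf7l2, Axin1, Axin2, Wif1, Notum, Nkd1, Nkd2, Lrp5, Lrp6 and Ctnnb1. They make up 50 of the 39017 gene IDs in the count table, and 43 of them had enough counts to be tested. The libraries were RNA-seq of about 50 mg of dorsal skin from female C3H/HeJ mice, about 30 weeks old at termination, in 4 groups of 6. Alopecia areata (AA) is an autoimmune loss of hair, and in these mice it was induced by skin grafting. The healthy group and the AA group got no inhibitor and were sampled at week 12. The systemic JAK1i group had AA and ate the JAK1 inhibitor AZ13748709 in daily servings at about 100 mg/kg for 4 weeks, with a biopsy taken from the live animal at week 4. The series' design text speaks of 12 weeks of dosing, whereas the sample labels and methods give 4, which are used here. The 8w off treatment group had AA and the same 4 weeks of inhibitor, followed by 8 weeks without it and terminal sampling at week 12. The systemic JAK1i and 8w off treatment groups come, by the methods, from the same mice at different times, but no label says which libraries share a mouse, so they were treated as separate libraries. The AA, systemic JAK1i and 8w off treatment groups thus all carry the graft-induced disease. The sampling week and the way of sampling, by biopsy or at termination, cannot be told apart from treatment. The labels do not name a separate vehicle group, although the sample names of the AA group hold the text Vec12w.

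Wnt ligands are secreted lipid-modified proteins that bind Frizzled receptors together with the co-receptors Lrp5 or Lrp6. In the canonical branch this stops a complex built around Axin from destroying β-catenin, the product of Ctnnb1, which then works with the TCF/LEF factors on target genes such as Axin2 and Lef1. Secreted Frizzled-related proteins, Dickkopf proteins, Wif1 and Notum act outside the cell against the ligands or the co-receptors, and Axin2, Nkd1 and Nkd2 dampen the signal inside it. Other ligands, Wnt5a and Wnt11 among them, are known mainly for branches that do not need β-catenin. In hair follicles Wnt signals are known for starting the growth phase (anagen) and for the differentiation of the hair matrix, the dividing cells that build the shaft.

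Libraries held 3444193 to 11233020 counts assigned to genes, with a median of 5517357. Levels are given as CPM, counts scaled to a fixed library total, with factors from the trimmed mean of M values (TMM), and a group's values are written as its lowest, median and highest library. A member is called higher or lower where edgeR's quasi-likelihood test over 16248 genes gave a Benjamini-Hochberg adjusted p below 0.05, and errors of log2 fold changes are standard errors. Where nothing says that libraries came from separate animals, a p-value measures only the spread between these libraries. These are bulk samples, in which fewer cells of a type and less RNA per cell cannot be told apart. All 12 measured genes of the hair matrix and cortex list (Krt35, Krt71, Msx2 and others) were called higher in AA than in healthy skin, and their summed level ran from 32.3 to 715 CPM in healthy, from 5822 to 17850 in AA, from 35.4 to 492 under systemic JAK1i and from 84.9 to 15190 CPM at 8w off treatment. Within the 8w off treatment group, libraries A and E stood apart at 212 and 84.9 CPM, against 6491 to 15190 CPM in the other 4. Bulge markers summed to 1141 to 2392 CPM in healthy, 252 to 716 in AA, 1642 to 2007 under systemic JAK1i and 562 to 1106 CPM at 8w off treatment. T cell markers summed to 25.8 to 50.4, 29.1 to 131, 20.5 to 38.6 and 48.4 to 115 CPM in the same order. Healthy library B held the group's lowest fibroblast sum, 2606 CPM against 5371 to 7175 CPM in the others, and healthy A and E held skeletal muscle sums of 1437 and 1204 CPM against 13000 to 71910 CPM in the other 4. Muscle sums were 64600 to 80840 CPM under systemic JAK1i and 18280 to 51120 CPM in AA, without overlap, and 21940 to 106100 CPM at 8w off treatment. The part of these differences in the results was not tested.

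Windows of 250 bases before RefSeq starts (GRCm38.p6, the genome of another strain) were at hand for 34 members, 43 windows in all. Each was searched on both strands for the TCF/LEF core, written as CTTTGAA or the variant CTTTGAT, and also as CTTTGTT or the variant CTTTGTA, the letters to which these factors are known to bind. Of these member windows 6 (14%) held a match, beside 14.8% of all 32851 windows in the table. A search for a STAT-type spacing, TTC and GAA around any 3 bases, matched 1 member window, of Wnt5b, beside 7.02% of all windows. The 3 sequences below, all on the plus strand, belong to Lef1 and Wnt11, high in AA skin, and to Axin2, low in AA skin, and capitals mark a match of the core on the opposite strand. Wnt11 was chosen for this after its values were seen, and for Lef1 the match lies in the window of 1 of 4 starts, inside the gene and in no annotated exon, while the other 3 windows had none.
Lef1, chr3:131156044-131156293: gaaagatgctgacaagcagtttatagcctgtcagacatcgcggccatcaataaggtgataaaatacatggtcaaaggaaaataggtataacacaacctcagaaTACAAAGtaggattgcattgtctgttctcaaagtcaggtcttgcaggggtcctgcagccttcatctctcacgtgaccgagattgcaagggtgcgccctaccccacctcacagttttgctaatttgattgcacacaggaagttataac
Wnt11, chr7:98834862-98835111: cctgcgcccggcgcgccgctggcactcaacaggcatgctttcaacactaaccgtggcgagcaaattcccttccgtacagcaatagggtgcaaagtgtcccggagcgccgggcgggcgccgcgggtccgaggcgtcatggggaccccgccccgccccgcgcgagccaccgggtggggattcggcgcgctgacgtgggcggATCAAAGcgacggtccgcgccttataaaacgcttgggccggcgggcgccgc
Axin2, chr11:108920099-108920348: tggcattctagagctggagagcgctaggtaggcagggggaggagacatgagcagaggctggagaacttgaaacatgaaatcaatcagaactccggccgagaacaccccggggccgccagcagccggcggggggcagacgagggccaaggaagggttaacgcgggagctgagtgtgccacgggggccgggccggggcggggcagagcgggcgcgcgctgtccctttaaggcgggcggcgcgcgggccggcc
The match begins 147 bases before the Lef1 start and 51 bases before the Wnt11 start, and the Axin2 window held no match of either kind. Counts per gene cannot say which start was used.

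Levels can be compared between genes only per length, and for this the deposited TPM were used, which scale transcripts by length and to a fixed total per library. Among ligands of healthy skin the highest mean TPM were those of Wnt3 (7.6 ± 1.54 TPM), Wnt7b (7.18 ± 1.72 TPM), Wnt4 (5.98 ± 0.575 TPM) and Wnt10a (5.02 ± 1.4 TPM), SD over 6 libraries, which are ligands known from the epidermis and follicle epithelium. The ranges of these 4 overlapped. Among receptors Fzd7 (12.98 ± 3.31 TPM), Fzd6 (10.6 ± 1.2 TPM) and Fzd1 (10.4 ± 2.79 TPM) led, and Fzd9 was lowest at 0.436 ± 0.163 TPM. Ctnnb1 stood at 86.7 ± 13.1 TPM, above every other member, and Tcf7l2 made up 54.5% ± 1.68 of the TPM of the 4 TCF/LEF genes in healthy skin. The make-up of the families changed between groups. Wnt11 gave 2.64% ± 1.29 of the summed ligand TPM in healthy skin, 15.7% ± 3.55 in AA, 4.20% ± 1.41 under systemic JAK1i and 10.8% ± 5.16 at 8w off treatment. Wnt3 went the other way, with 18.7% ± 2.40, 12.1% ± 1.80, 17.4% ± 2.11 and 13.4% ± 1.97 in the same order. Lef1 gave 14.2% ± 2.50 of the TCF/LEF TPM in healthy skin and 35.9% ± 10.6 in AA, and its libraries did not overlap between these groups (9.87 to 16.7% against 18.04 to 48.9%). Fzd5 gave 2.66% ± 0.348 of the Frizzled TPM in healthy skin and 7.91% ± 0.847 in AA, again without overlap. TPM and counts disagreed for the rarest members. Dkk4 was listed at 1.7 ± 0.352 TPM in healthy skin with 47 counts over all 24 libraries, so shares within the Dickkopf family are not given.

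**Figure D1:**
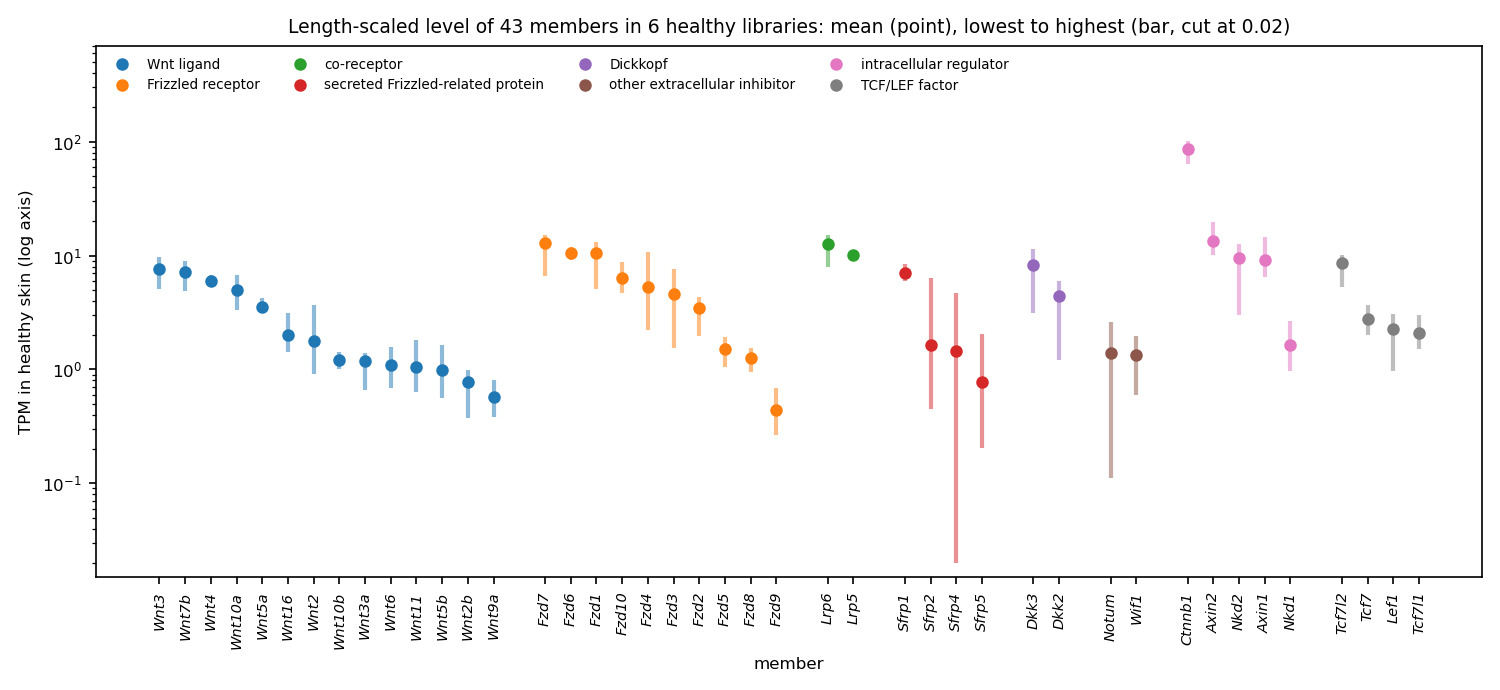
Mean deposited TPM of the 43 tested members in healthy skin, grouped by role on the x axis, with TPM on a log axis; points are means of 6 libraries and bars run from the lowest to the highest library, cut at 0.02. Ctnnb1 lies highest, and Wnt3 leads the ligands.

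The 7 members that were not tested had 3 (Wnt1), 9 (Dkk1), 29 (Wnt8a), 47 (Wnt8b), 47 (Dkk4), 63 (Wnt9b) and 100 counts (Wnt7a) over all libraries. Wnt1, a ligand of the early nervous system, had 0 counts in healthy skin and under systemic JAK1i, which allows up to 0.0895 and 0.0688 CPM over those groups. Dkk1, a blocker of Lrp5 and Lrp6, had 0 counts under systemic JAK1i and 3 in each of the other groups. The deposited TPM, in contrast, list Dkk1 at 0.178 to 0.603 TPM in the systemic JAK1i libraries, and Wnt1 at up to 0.0631 TPM there. Counts and TPM thus disagree for these genes, and the absence of Dkk1 cannot be told from a low level at this depth.

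Between AA and healthy skin 10 of the 43 members were higher and 9 lower, 44.2% of them, beside 40.2% of all genes tested (20.9% higher and 19.3% lower). Higher were Wnt11, Wnt5a, Wnt10b, Fzd5, Fzd10, Fzd6, Sfrp1, Wif1, Ctnnb1 and Lef1, and lower were Wnt16, Wnt3, Wnt6, Wnt7b, Fzd3, Fzd9, Dkk2, Dkk3 and Axin2. For 8 members the libraries of the groups did not overlap, 18.6% beside 14.3% of all genes. The share called was near the background and is not a result about the pathway. Between systemic JAK1i and AA skin 8 were higher and 16 lower, beside 47.7% of all genes called (22.9% higher and 24.8% lower), and 17 did not overlap, beside 26.9% of all genes. Against healthy skin 2 members, Wnt16 and Sfrp1, were lower under systemic JAK1i and 0 higher, beside 1.05% of all genes called (0.511% higher and 0.535% lower), and 2 members (Wnt16 and Wnt2) did not overlap, beside 2.56%. In skin 8 weeks off treatment 13 members differed from healthy skin, 8 higher and 5 lower, beside 32.7% of all genes called (16.9% higher and 15.7% lower), and Tcf7l2 alone did not overlap, 1 member beside 8.97%. From AA skin 1 member differed, Wnt16, which was higher, beside 1.37% of all genes called (0.726% higher and 0.64% lower), and 2 members did not overlap, beside 1.28%. Against systemic JAK1i 15 were higher and 4 lower, beside 35.9% of all genes called (19.4% higher and 16.6% lower), and 8 members did not overlap, beside 18%. Comparisons that share a group share its libraries and are not independent of each other. Over the 4 groups together 27 of the 43 members differed (62.8%, beside 53.3% of all genes), and 14 members passed in none of the 6 comparisons, which are Fzd1, Fzd2, Fzd7, Fzd8, Lrp6, Nkd1, Nkd2, Notum, Sfrp5, Tcf7l1, Wnt2b, Wnt3a, Wnt5b and Wnt9a.

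These directions are relative to the typical gene. On the deposited TPM, taken as they stand, the median gene moved by -0.29 on the log2 scale between AA and healthy, by 0.65 between systemic JAK1i and AA, by 0.34 between systemic JAK1i and healthy, by -0.80 and -0.51 between 8w off treatment and healthy or AA, and by -1.16 between 8w off treatment and systemic JAK1i. The split of calls then became 3 higher and 8 lower, 20 and 3, 0 and 0, 1 and 25, 1 and 1, and 0 and 32 members in the same order. With each library centred on its median gene the split on TPM was 9 and 10, 7 and 13, 0 and 1, 8 and 3, 1 and 0, and 12 and 2, and no called direction turned. Shares of all genes called are not set beside these TPM splits. The splits show how the calls depend on scaling and are not results about the members.

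**Figure D2:**
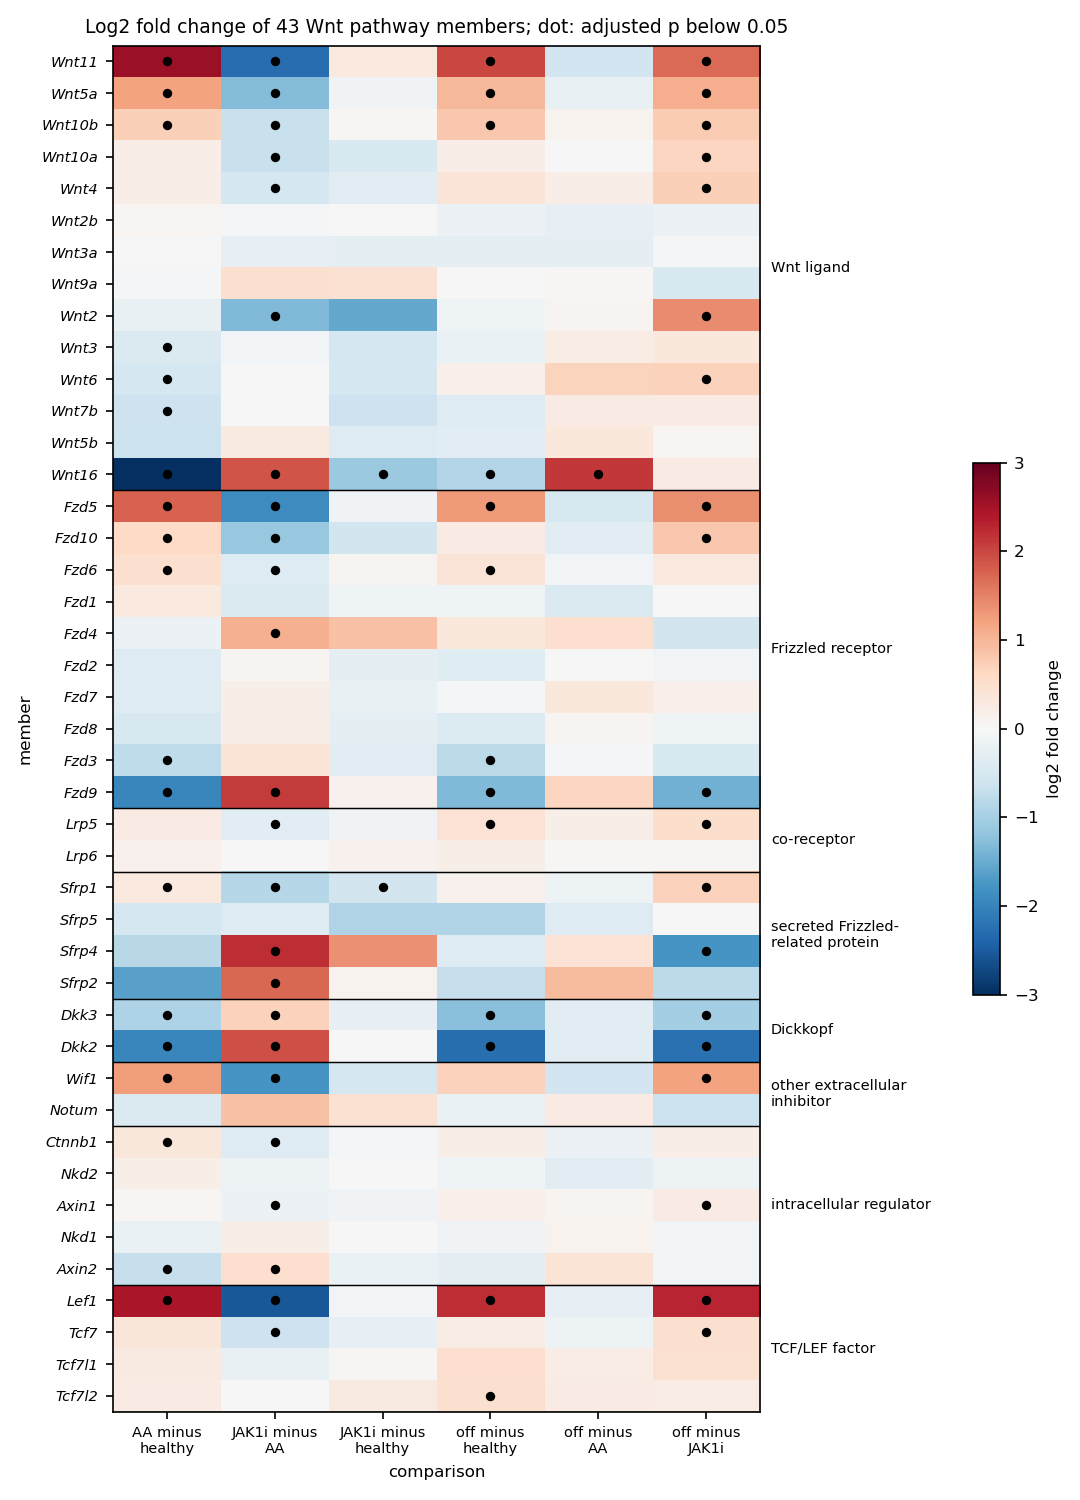
Log2 fold changes of 43 members (y axis, by role) in 6 comparisons (x axis), from edgeR on TMM-scaled counts; red is higher, blue is lower, and a black dot marks an adjusted p below 0.05. Wnt11, Lef1 and Fzd5 are red and Wnt16, Dkk2 and Fzd9 blue in AA minus healthy, and the column of systemic JAK1i minus healthy holds 2 dots; on uncentred TPM 21 of the 78 marked differences reverse.

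Of the 14 tested ligands 3 were higher and 4 lower in AA than in healthy skin, beside 20.9% and 19.3% of all genes. In systemic JAK1i minus AA the split was 1 and 6, beside 22.9% and 24.8%. The share of ligands called was 50% in both, beside 40.2% and 47.7% of all genes, and is not a result about the ligands. The ligand with the steepest rise was Wnt11, which acts mostly outside the β-catenin branch and lies at chr7:98835112-98855195 (plus strand, mm10). It stood at 2.23, 3.6 and 6.17 CPM in healthy skin, 17.7, 25.1 and 32.3 CPM in AA skin, 3.59, 5.15 and 6.12 CPM under systemic JAK1i and 4.87, 17.2 and 24.9 CPM at 8w off treatment. No AA library overlapped a healthy or a systemic JAK1i library, and the 8w off treatment libraries spread over both ranges. The test gave a log2 fold change 2.59 ± 0.3, adjusted p = 1.5e-06 for AA minus healthy and a log2 fold change -2.29 ± 0.29, adjusted p = 2.8e-06 for systemic JAK1i minus AA. At 8w off treatment it was higher than in healthy skin (log2 fold change 2.00 ± 0.31, adjusted p = 4.8e-05) and higher than under systemic JAK1i (log2 fold change 1.71 ± 0.29, adjusted p = 0.00012). Wnt5a, the other main ligand of the β-catenin-independent branch, stood at 21.3, 23.6 and 34.01 CPM in healthy skin, 40.2, 57.2 and 77.3 CPM in AA skin, 19.7, 23.1 and 28.7 CPM under systemic JAK1i and 25.9, 49.7 and 71.03 CPM at 8w off treatment. Here too all AA libraries lay above all healthy and all systemic JAK1i libraries. It rose in AA (log2 fold change 1.2 ± 0.2, adjusted p = 8.6e-05) and fell from AA to systemic JAK1i (log2 fold change -1.3 ± 0.2, adjusted p = 2.8e-05), and it was above healthy skin at 8w off treatment (log2 fold change 0.98 ± 0.21, adjusted p = 0.00092). Wnt10b, a canonical ligand known from hair follicle growth, was rarer, at 4.25, 5.28 and 9.31 CPM in healthy skin, 5.97, 9.17 and 14.3 CPM in AA skin, 4.56, 6.22 and 7.77 CPM under systemic JAK1i and 7.2, 10.7 and 15.1 CPM at 8w off treatment. Its groups overlapped in every comparison. It was nonetheless higher in AA than in healthy skin (log2 fold change 0.71 ± 0.22, adjusted p = 0.011), lower under systemic JAK1i than in AA (log2 fold change -0.67 ± 0.21, adjusted p = 0.013) and higher at 8w off treatment than in healthy skin (log2 fold change 0.82 ± 0.22, adjusted p = 0.006). Without AA library A the second of these had an adjusted p of 0.055. Exons of Wnt11 and Wnt5a overlap those of the genes Gm8398 and Gm2670 on the opposite strand, and since the strand setting of the counting is not given in the sources used here their reads cannot be told apart. The same holds for Wnt7b, Fzd5, Fzd6, Sfrp2, Notum, Axin2, Ctnnb1, Lef1 and Tcf7l1, which also overlap a gene on the other strand.

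Wnt16, a ligand at chr6:22288227-22298522 (plus strand), had the smallest p of all members in the test over 4 groups. It stood at 5.69, 8.72 and 11.7 CPM in healthy skin, 0.529, 0.988 and 1.71 CPM in AA skin, 3, 3.82 and 4.97 CPM under systemic JAK1i and 2.79, 4.36 and 7.08 CPM at 8w off treatment. AA skin was lowest without overlap with any other group, healthy skin highest, and systemic JAK1i and 8w off treatment lay between and overlapped each other, the latter reaching into the healthy range. It fell from healthy to AA (log2 fold change -3.01 ± 0.29, adjusted p = 1e-07), rose from AA to systemic JAK1i (log2 fold change 1.9 ± 0.3, adjusted p = 1.5e-05) and remained below healthy skin under systemic JAK1i (log2 fold change -1.12 ± 0.22, adjusted p = 0.018). At 8w off treatment it was below healthy skin (log2 fold change -0.88 ± 0.23, adjusted p = 0.0049) and above AA skin (log2 fold change 2.13 ± 0.3, adjusted p = 0.00037), the one member that passed there. Between 8w off treatment and systemic JAK1i the estimate was log2 fold change 0.23 ± 0.24, adjusted p = 0.47. Without systemic JAK1i library C the difference from healthy skin had an adjusted p of 0.051.

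The abundant epithelial ligands moved less. Wnt3, a canonical ligand, stood at 33.3, 51.2 and 74.5 CPM in healthy skin, 31.1, 37.1 and 54.5 CPM in AA skin, 32.3, 34.9 and 43.4 CPM under systemic JAK1i and 36.1, 44.4 and 58.6 CPM at 8w off treatment, with overlap throughout. Wnt7b, another canonical ligand of the epithelium, stood at 34.6, 58.5 and 79.4 CPM in healthy skin, 26.2, 35.1 and 51.03 CPM in AA skin, 24.7, 37.7 and 45.3 CPM under systemic JAK1i and 23.6, 39.01 and 68.6 CPM at 8w off treatment. Healthy skin had the highest median for both, and both were lower in AA than in healthy skin, with a log2 fold change -0.44 ± 0.17, adjusted p = 0.037 for Wnt3 and a log2 fold change -0.63 ± 0.23, adjusted p = 0.035 for Wnt7b. These 2 calls hung on single libraries: without any one of healthy A, B or E or AA B, C or E the adjusted p was 0.053 to 0.11 for Wnt3 and 0.064 to 0.088 for Wnt7b. Healthy B, which had the highest Wnt3 and Wnt7b of its group (74.5 and 79.4 CPM), also had the highest basal epidermis sum of the healthy libraries, 10210 CPM against 4955 to 6904, and their lowest fibroblast sum, and the part of these was not tested. Wnt6, a neighbour of Wnt10a on chromosome 1 at a distance of 6193 bases, stood at 3.17, 5.2 and 6.46 CPM in healthy skin, 2.68, 3.72 and 3.91 CPM in AA skin, 2.54, 3.07 and 4.78 CPM under systemic JAK1i and 4.47, 5.53 and 6.56 CPM at 8w off treatment. It was lower in AA than in healthy skin (log2 fold change -0.52 ± 0.21, adjusted p = 0.046), but without any one of healthy A, B, C or F or AA A, B, C or F this passed no longer (adjusted p 0.051 to 0.11). It was higher at 8w off treatment than under systemic JAK1i (log2 fold change 0.68 ± 0.2, adjusted p = 0.0099).

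Wnt4, Wnt10a and Wnt2 did not pass between AA and healthy skin but were lower under systemic JAK1i than in AA. Wnt4, known from epidermis and dermis, stood at 33.3, 35.8 and 66.05 CPM in healthy skin, 38.5, 44.1 and 63.2 CPM in AA skin, 26.2, 32.5 and 36.7 CPM under systemic JAK1i and 40.9, 49.7 and 71.7 CPM at 8w off treatment. The systemic JAK1i libraries lay below all AA libraries (log2 fold change -0.52 ± 0.17, adjusted p = 0.013) and below all 8w off treatment libraries (log2 fold change 0.72 ± 0.17, adjusted p = 0.0016 for 8w off treatment minus systemic JAK1i). Wnt10a, a canonical ligand of follicles whose loss thins hair and teeth, stood at 16.98, 25.2 and 46.7 CPM in healthy skin, 18.6, 34.8 and 39.02 CPM in AA skin, 13.3, 21.3 and 25.8 CPM under systemic JAK1i and 28.9, 31.1 and 38.9 CPM at 8w off treatment. It was lower under systemic JAK1i than in AA (log2 fold change -0.67 ± 0.2, adjusted p = 0.0087), and the 8w off treatment libraries were all above those of systemic JAK1i (log2 fold change 0.66 ± 0.2, adjusted p = 0.014). Wnt2, a canonical ligand, stood at 4.93, 7.25 and 22.7 CPM in healthy skin, 2.98, 7.63 and 14.3 CPM in AA skin, 2.21, 3 and 4.41 CPM under systemic JAK1i and 2.9, 8.45 and 17.03 CPM at 8w off treatment. The wide spread came in part from healthy library B at 22.7 CPM. Its fall from AA to systemic JAK1i (log2 fold change -1.32 ± 0.46, adjusted p = 0.022) had an adjusted p of 0.053 without AA A and 0.064 without AA F, and its rise at 8w off treatment over systemic JAK1i (log2 fold change 1.41 ± 0.46, adjusted p = 0.02) had one of 0.069 without 8w off treatment E. In that last comparison 7 of the 14 tested ligands were higher and 0 lower (Wnt11, Wnt5a, Wnt10b, Wnt4, Wnt6, Wnt10a and Wnt2), beside 19.4% and 16.6% of all genes, while on uncentred TPM no member was higher. The remaining ligands passed nowhere. The libraries of Wnt2b, Wnt3a, Wnt5b and Wnt9a ran from 2.05 to 10.9 CPM, and the estimate farthest from 0 was that of Wnt5b in AA minus healthy (log2 fold change -0.65 ± 0.31, adjusted p = 0.098).

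**Figure D3:**
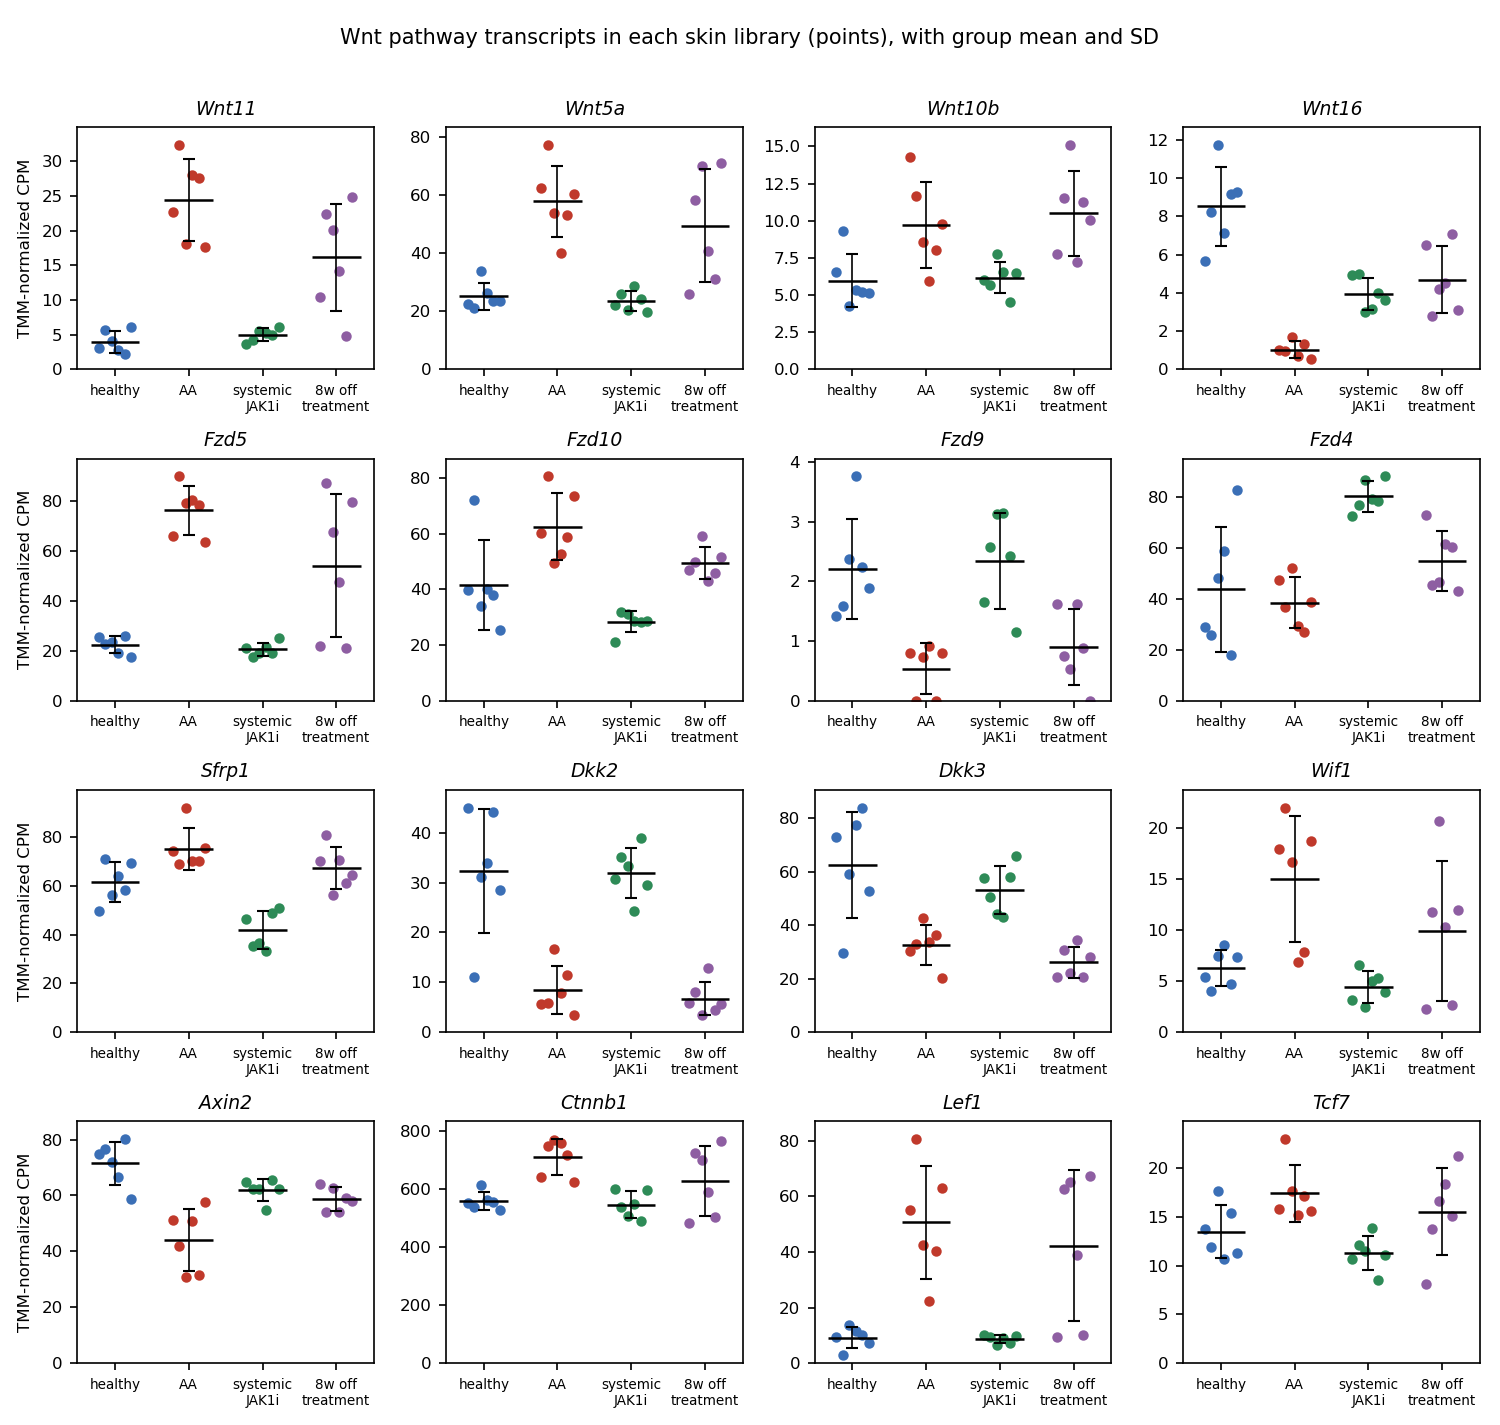
TMM-normalized CPM of 16 members (y axes from 0) in the 4 groups (x axis); each point is 1 of 6 libraries per group, lines are means and error bars are SD. Wnt11, Wnt5a, Fzd5 and Lef1 are high in AA with some 8w off treatment libraries at the healthy level, and Wnt16, Dkk2 and Axin2 are low in AA.

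Of the 10 Frizzled receptors 3 were higher (Fzd5, Fzd10 and Fzd6) and 2 lower (Fzd3 and Fzd9) in AA than in healthy skin, beside 20.9% and 19.3% of all genes. That is 50% of them beside 40.2% of all genes, and is not a result about the receptors. On uncentred TPM the signs of Fzd6 and Fzd10 turned, for Fzd6 in systemic JAK1i minus AA and in 8w off treatment minus healthy, and for Fzd10 in 8w off treatment minus systemic JAK1i. Fzd5, a receptor for canonical and other ligands, stood at 17.7, 23.1 and 26.1 CPM in healthy skin, 63.5, 78.8 and 89.7 CPM in AA skin, 17.5, 20.2 and 24.98 CPM under systemic JAK1i and 21.2, 57.6 and 86.98 CPM at 8w off treatment. All AA libraries were above all healthy and all systemic JAK1i libraries, and 8w off treatment spanned both levels. It rose in AA (log2 fold change 1.77 ± 0.25, adjusted p = 1.4e-05), fell under systemic JAK1i (log2 fold change -1.88 ± 0.25, adjusted p = 4.8e-06) and was above healthy at 8w off treatment (log2 fold change 1.28 ± 0.25, adjusted p = 0.00054). Fzd10 stood at 25.4, 38.9 and 72.2 CPM in healthy skin, 49.4, 59.4 and 80.5 CPM in AA skin, 21.3, 28.5 and 32.01 CPM under systemic JAK1i and 42.9, 48.4 and 59.3 CPM at 8w off treatment. Healthy library B was the one healthy value inside the AA range, at 72.2 CPM. Fzd10 was higher in AA (log2 fold change 0.59 ± 0.17, adjusted p = 0.0094) and lower under systemic JAK1i than in AA, without overlap (log2 fold change -1.14 ± 0.17, adjusted p = 2.1e-05), and higher again at 8w off treatment than under systemic JAK1i (log2 fold change 0.8 ± 0.18, adjusted p = 0.0011). Fzd6, known for the orientation of hairs, had means of 96.2 ± 20.04 CPM in healthy skin, 134 ± 33.7 CPM in AA skin, 102 ± 12.7 CPM under systemic JAK1i and 126 ± 12.7 CPM at 8w off treatment. It was higher in AA than in healthy skin (log2 fold change 0.48 ± 0.14, adjusted p = 0.0079) and lower under systemic JAK1i than in AA (log2 fold change -0.39 ± 0.14, adjusted p = 0.023), which without AA library D shrank to a log2 fold change of -0.24 (adjusted p = 0.098) and without systemic JAK1i B or D had an adjusted p of 0.051 or 0.053. At 8w off treatment it was above healthy skin (log2 fold change 0.39 ± 0.14, adjusted p = 0.034), a call lost without any one of healthy A, C, D, E or F or 8w off treatment A, B or F (adjusted p 0.055 to 0.084).

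Fzd3, a receptor of the planar polarity branch, stood at 20.4, 36.8 and 43.7 CPM in healthy skin, 13.5, 20.9 and 27.2 CPM in AA skin, 24.4, 26.4 and 35.4 CPM under systemic JAK1i and 12.2, 21.8 and 25.03 CPM at 8w off treatment. The healthy libraries overlapped AA through healthy B at 20.4 CPM. It was lower in AA (log2 fold change -0.77 ± 0.19, adjusted p = 0.0022) and at 8w off treatment (log2 fold change -0.81 ± 0.19, adjusted p = 0.0021) than in healthy skin. Fzd9 was rare, at 1.42, 2.06 and 3.76 CPM in healthy skin, 0, 0.763 and 0.918 CPM in AA skin, 1.16, 2.5 and 3.15 CPM under systemic JAK1i and 0, 0.815 and 1.62 CPM at 8w off treatment. It fell in AA to a level of at most 0.918 CPM, below all healthy and all systemic JAK1i libraries (log2 fold change -1.96 ± 0.56, adjusted p = 0.0043 against healthy, log2 fold change 2.09 ± 0.55, adjusted p = 0.0017 for systemic JAK1i minus AA). Its counts summed to 72 in healthy skin, 17 in AA, 107 under systemic JAK1i and 25 at 8w off treatment. Healthy and systemic JAK1i libraries carried Fzd9 past the filter on low counts, so its tests are given for description only. It was below healthy skin at 8w off treatment (log2 fold change -1.32 ± 0.5, adjusted p = 0.04), which was lost without any one of healthy C, D or E or 8w off treatment B, C, E or F (adjusted p 0.055 to 0.10). Fzd4, known as a receptor of blood vessels, stood at 17.9, 38.5 and 82.7 CPM in healthy skin, 26.7, 37.6 and 52.1 CPM in AA skin, 72.2, 78.7 and 87.8 CPM under systemic JAK1i and 42.9, 53.5 and 72.7 CPM at 8w off treatment. Systemic JAK1i was the one group with all libraries high, above all AA libraries (log2 fold change 1.05 ± 0.25, adjusted p = 0.0017). Its skeletal muscle sums were also above those of all AA libraries, and the part of muscle was not tested. Healthy library F, which also held the highest Sfrp2 and Sfrp4 of the healthy libraries, was within the systemic JAK1i range of Fzd4 at 82.7 CPM. Fzd1, Fzd2, Fzd7 and Fzd8 passed in no comparison, with Fzd7 at 127 ± 23.8 CPM in healthy skin, 96.8 ± 32.3 CPM in AA skin, 108 ± 13.04 CPM under systemic JAK1i and 121 ± 17.8 CPM at 8w off treatment.

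Lrp5, one of the co-receptors, stood at 97.8, 107 and 159.9 CPM in healthy skin, 115, 127 and 179 CPM in AA skin, 95.03, 104 and 132 CPM under systemic JAK1i and 138, 155 and 166 CPM at 8w off treatment. The 8w off treatment libraries lay above all systemic JAK1i libraries (log2 fold change 0.52 ± 0.12, adjusted p = 0.0015), and the group was also above healthy skin (log2 fold change 0.42 ± 0.12, adjusted p = 0.0085). From AA to systemic JAK1i Lrp5 fell (log2 fold change -0.34 ± 0.12, adjusted p = 0.021), with an adjusted p of 0.080 without AA library D and 0.053 without systemic JAK1i C. Lrp6, the other co-receptor, had means of 212 ± 24.6 CPM in healthy skin, 233 ± 21.5 CPM in AA skin, 233 ± 14.1 CPM under systemic JAK1i and 240.1 ± 26.96 CPM at 8w off treatment and passed nowhere.

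Among the secreted inhibitors both tested Dickkopf genes were lower in AA than in healthy skin, while Wif1 and Sfrp1 were higher, the latter with a sign that turned on uncentred TPM. Dkk2, which binds Lrp5 and Lrp6, stood at 11.1, 32.6 and 45.1 CPM in healthy skin, 3.44, 6.77 and 16.6 CPM in AA skin, 24.4, 32.05 and 39.1 CPM under systemic JAK1i and 3.51, 5.72 and 12.8 CPM at 8w off treatment. Healthy B was the one healthy library inside the AA range, at 11.1 CPM. Dkk2 fell in AA (log2 fold change -1.95 ± 0.33, adjusted p = 8.8e-05), was higher without overlap under systemic JAK1i than in AA (log2 fold change 1.93 ± 0.33, adjusted p = 6.7e-05) and was low again at 8w off treatment, against healthy (log2 fold change -2.25 ± 0.34, adjusted p = 4.8e-05) and against systemic JAK1i (log2 fold change -2.24 ± 0.34, adjusted p = 3.7e-05). Dkk3, a more distant family member, stood at 29.7, 65.98 and 83.9 CPM in healthy skin, 20.1, 33.2 and 42.6 CPM in AA skin, 42.98, 53.95 and 65.7 CPM under systemic JAK1i and 20.4, 25.1 and 34.4 CPM at 8w off treatment. It moved in the same way, with a log2 fold change -0.94 ± 0.2, adjusted p = 0.00076 in AA and a log2 fold change 0.7 ± 0.2, adjusted p = 0.0063 from AA to systemic JAK1i, and it was below healthy skin at 8w off treatment (log2 fold change -1.25 ± 0.2, adjusted p = 9.2e-05). These changes of Dkk2 and Dkk3 passed without any single library and under every alternative run. Summed bulge and adipocyte markers were also low in AA and at 8w off treatment: the 6 adipocyte genes summed to 218 to 1443 CPM in healthy skin, 115 to 547 in AA, 642 to 1104 under systemic JAK1i and 213 to 314 CPM at 8w off treatment. Of the 8 bulge genes 5 were lower and 0 higher than healthy skin in AA, beside 19.3% and 20.9% of all genes. The bulge genes Lgr5, Sox9 and Tcf7l1 did not pass there (log2 fold changes -0.025, 0.087 and 0.28). Healthy B, the lowest healthy library for Dkk2 and Dkk3 (11.1 and 29.7 CPM), also held the lowest healthy fibroblast sum, 2606 CPM. The part of bulge, adipocyte and fibroblast cells was not tested.

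Wif1, which binds Wnt proteins directly, stood at 4.04, 6.39 and 8.51 CPM in healthy skin, 6.88, 17.3 and 22 CPM in AA skin, 2.45, 4.5 and 6.62 CPM under systemic JAK1i and 2.27, 11 and 20.7 CPM at 8w off treatment. AA libraries D and E lay at the healthy level. It was higher in AA than in healthy skin (log2 fold change 1.26 ± 0.39, adjusted p = 0.012) and lower without overlap under systemic JAK1i (log2 fold change -1.77 ± 0.39, adjusted p = 0.00083). It was higher at 8w off treatment than under systemic JAK1i (log2 fold change 1.2 ± 0.4, adjusted p = 0.021), with an adjusted p of 0.051 without systemic JAK1i C and 0.098 without 8w off treatment C. Sfrp1, which binds Wnt proteins through a Frizzled-like domain, stood at 49.8, 61.2 and 70.97 CPM in healthy skin, 69.05, 72.3 and 92.02 CPM in AA skin, 33.3, 41.5 and 50.8 CPM under systemic JAK1i and 56.1, 67.3 and 80.8 CPM at 8w off treatment. Systemic JAK1i was the low group, below all AA libraries (log2 fold change -0.85 ± 0.12, adjusted p = 5.9e-06) and all 8w off treatment libraries (log2 fold change 0.68 ± 0.12, adjusted p = 0.00011 for 8w off treatment minus systemic JAK1i), and lower than healthy skin with overlap (log2 fold change -0.55 ± 0.12, adjusted p = 0.02). That last difference had an adjusted p of 0.051, 0.057 and 0.052 without systemic JAK1i B, C or D. Its rise in AA (log2 fold change 0.29 ± 0.11, adjusted p = 0.045) was lost without any one of 11 libraries (healthy A, C, D or E, AA A, C or F, systemic JAK1i C, or 8w off treatment A, D or F), with adjusted p from 0.050 to 0.13.

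Sfrp2 and Sfrp4, secreted proteins of dermal cells, were higher under systemic JAK1i than in AA. The 7 dermal fibroblast genes summed to 2606 to 7175 CPM in healthy skin and 1990 to 8747 CPM in AA. Under systemic JAK1i they summed to 5027 to 9602 CPM and at 8w off treatment to 2465 to 4217 CPM. Of them 4 were higher and 0 lower in systemic JAK1i minus AA, beside 22.9% and 24.8% of all genes. In 8w off treatment minus systemic JAK1i 0 were higher and 7 lower, beside 19.4% and 16.6%. The part of fibroblasts was not tested. Sfrp4 had means of 5.48 ± 6.33 CPM in healthy skin, 3.05 ± 1.41 CPM in AA skin, 14.5 ± 6.23 CPM under systemic JAK1i and 4.28 ± 1.2 CPM at 8w off treatment, with a log2 fold change 2.21 ± 0.58, adjusted p = 0.0033 for systemic JAK1i minus AA and a log2 fold change -1.77 ± 0.56, adjusted p = 0.017 for 8w off treatment minus systemic JAK1i. Sfrp2 had means of 4.04 ± 6.72 CPM in healthy skin, 1.33 ± 0.38 CPM in AA skin, 4.36 ± 1.39 CPM under systemic JAK1i and 2.56 ± 1.41 CPM at 8w off treatment (log2 fold change 1.73 ± 0.68, adjusted p = 0.033 for systemic JAK1i minus AA), lost without any one of AA A, B or E or systemic JAK1i C, D or F at an adjusted p from 0.052 to 0.067. Healthy library F alone held 17.7 CPM of Sfrp2, against 0.248 to 2.57 CPM in the other 5. Sfrp5 and Notum, an enzyme that removes the lipid from Wnt proteins, passed in no comparison.

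Inside the cell the target and brake Axin2, at chr11:108920349-108950783 (plus strand), went opposite to Lef1. Axin2 stood at 58.8, 73.4 and 80.2 CPM in healthy skin, 30.8, 46.4 and 57.6 CPM in AA skin, 54.8, 62.4 and 65.4 CPM under systemic JAK1i and 54.02, 58.5 and 64.2 CPM at 8w off treatment. All AA libraries lay below all healthy libraries. The fall in AA was a log2 fold change -0.7 ± 0.12, adjusted p = 8.4e-05, and from AA to systemic JAK1i it rose (log2 fold change 0.49 ± 0.12, adjusted p = 0.0017). The 8w off treatment group lay between, with a log2 fold change -0.28 ± 0.12, adjusted p = 0.067 against healthy and a log2 fold change 0.41 ± 0.12, adjusted p = 0.075 against AA, neither past the threshold. The fall in AA passed under all 38 alternatives and left-out libraries. Exons of Axin2 overlap those of Gm11670 on the opposite strand. Ctnnb1, which encodes β-catenin, stood at 530.4, 554 and 616 CPM in healthy skin, 626, 733 and 769.7 CPM in AA skin, 492, 543 and 601 CPM under systemic JAK1i and 486, 646 and 767 CPM at 8w off treatment. It was higher in AA than in either healthy skin (log2 fold change 0.35 ± 0.1, adjusted p = 0.0079) or systemic JAK1i (log2 fold change -0.38 ± 0.1, adjusted p = 0.0035 for systemic JAK1i minus AA), without overlap. Its difference from healthy skin at 8w off treatment was log2 fold change 0.17 ± 0.1, adjusted p = 0.2. Its exons overlap those of Ulk4 on the opposite strand. Axin1, the scaffold of the destruction complex, had means of 49.05 ± 2.5 CPM in healthy skin, 51.4 ± 3.44 CPM in AA skin, 45.6 ± 3.995 CPM under systemic JAK1i and 54.2 ± 4.68 CPM at 8w off treatment. It was slightly lower under systemic JAK1i than in AA (log2 fold change -0.17 ± 0.068, adjusted p = 0.04), a call lost without any one of 11 libraries (healthy A or C, AA A to E, or systemic JAK1i A, B, D or E; adjusted p 0.050 to 0.12), and higher at 8w off treatment than under systemic JAK1i (log2 fold change 0.25 ± 0.068, adjusted p = 0.006). Nkd1 and Nkd2, which act on Dishevelled, passed in no comparison, and Nkd2 ran from 18.8 to 87.5 CPM within the 8w off treatment group.

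Lef1, the TCF/LEF factor of the hair matrix at chr3:131110471-131224356 (plus strand), stood at 2.99, 9.78 and 13.8 CPM in healthy skin, 22.3, 48.8 and 80.5 CPM in AA skin, 6.68, 9.37 and 10.2 CPM under systemic JAK1i and 9.41, 50.9 and 67.2 CPM at 8w off treatment. All AA libraries were above all healthy and all systemic JAK1i libraries, while 8w off treatment held libraries at either level. Lef1 rose in AA (log2 fold change 2.46 ± 0.41, adjusted p = 8.9e-05) and fell from AA to systemic JAK1i (log2 fold change -2.54 ± 0.41, adjusted p = 4.4e-05). It was above healthy at 8w off treatment (log2 fold change 2.21 ± 0.42, adjusted p = 4e-04) and above systemic JAK1i (log2 fold change 2.29 ± 0.41, adjusted p = 0.00021). Its difference from AA was log2 fold change -0.25 ± 0.39, adjusted p = 0.78, and for systemic JAK1i minus healthy it was log2 fold change -0.075 ± 0.44, adjusted p = 0.96. Exons of Lef1 overlap those of Gm43352 on the opposite strand. Tcf7, a factor of T cells as well as of skin, had means of 13.5 ± 2.69 CPM in healthy skin, 17.4 ± 2.89 CPM in AA skin, 11.3 ± 1.75 CPM under systemic JAK1i and 15.5 ± 4.48 CPM at 8w off treatment. It was lower without overlap under systemic JAK1i than in AA (log2 fold change -0.62 ± 0.17, adjusted p = 0.005) and higher at 8w off treatment than under systemic JAK1i (log2 fold change 0.47 ± 0.17, adjusted p = 0.036), the second of which was lost without any one of systemic JAK1i A, C, E or F or 8w off treatment C, D or F (adjusted p 0.056 to 0.12). Tcf7l2, the most abundant of the family per length in healthy skin, was higher without overlap at 8w off treatment than in healthy skin (log2 fold change 0.49 ± 0.14, adjusted p = 0.012), with means of 29.5 ± 4.98 CPM in healthy skin, 35.1 ± 8.59 CPM in AA skin, 35.3 ± 5.05 CPM under systemic JAK1i and 41.3 ± 5.29 CPM at 8w off treatment. Tcf7l1, a bulge factor, had means of 7.83 ± 1.86 CPM in healthy skin, 9.54 ± 3.42 CPM in AA skin, 8.06 ± 1.42 CPM under systemic JAK1i and 11.1 ± 2.18 CPM at 8w off treatment and passed nowhere.

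The 8w off treatment libraries were not alike. Libraries A and E also had the group's highest skeletal muscle sums, 94760 and 106100 CPM against 21940 to 72760 in the other 4, and its highest basal epidermis sums, 9123 and 8353 CPM against 5585 to 6863, and the part of these differences was not tested. Libraries A and E, those with hair matrix sums of 212 and 84.9 CPM, held 9.41 and 10.2 CPM of Lef1, where B, C, D and F held 62.8, 65.2, 39.1 and 67.2. Fzd5 was 21.7 and 21.2 CPM in A and E against 47.5 to 86.98 in the others, and Wnt11 was 10.4 and 4.87 against 14.2 to 24.9. For Lef1 and Fzd5 both A and E lay within the healthy range. For Wnt11 E did too, while A lay above every healthy library (at most 6.17 CPM). Wnt16 was higher in A and E, at 6.49 and 7.08 CPM against 2.79 to 4.5. Dkk2 was as low in them as in the rest of the group, at 5.84 and 4.42 CPM, below every healthy library. In all, 15 of the 43 members were lower in both A and E than in any other library of the group, beside 18.7% of all genes tested, and 8 were higher, beside 16% of all genes. The first set holds Wnt11, Wnt5a, Fzd1, Fzd2, Fzd3, Fzd5, Lrp6, Dkk3, Wif1, Notum, Ctnnb1, Nkd1, Nkd2, Lef1 and Tcf7l1, and the second Wnt2, Wnt2b, Wnt3, Wnt4, Wnt7b, Wnt9a, Wnt16 and Sfrp5. Libraries A and E were picked from values of this dataset, so no test of them against the other 4 was made. The fit without them rests on that choice and is given for description only. Lef1, Fzd5 and Wnt11 were low in A and E, so their larger fold changes below follow from leaving these libraries out. With A and E left out, 17 members differed from healthy skin, 1 from AA and 20 from systemic JAK1i, in place of 13, 1 and 19. The log2 fold change against healthy skin then was 2.66 in place of 2.21 for Lef1, 1.64 in place of 1.28 for Fzd5 and 2.32 in place of 2.00 for Wnt11. The rise of Wnt2 over systemic JAK1i and that of Fzd6 over healthy skin no longer passed without them (adjusted p 0.14 and 0.080).

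**Figure D4:**
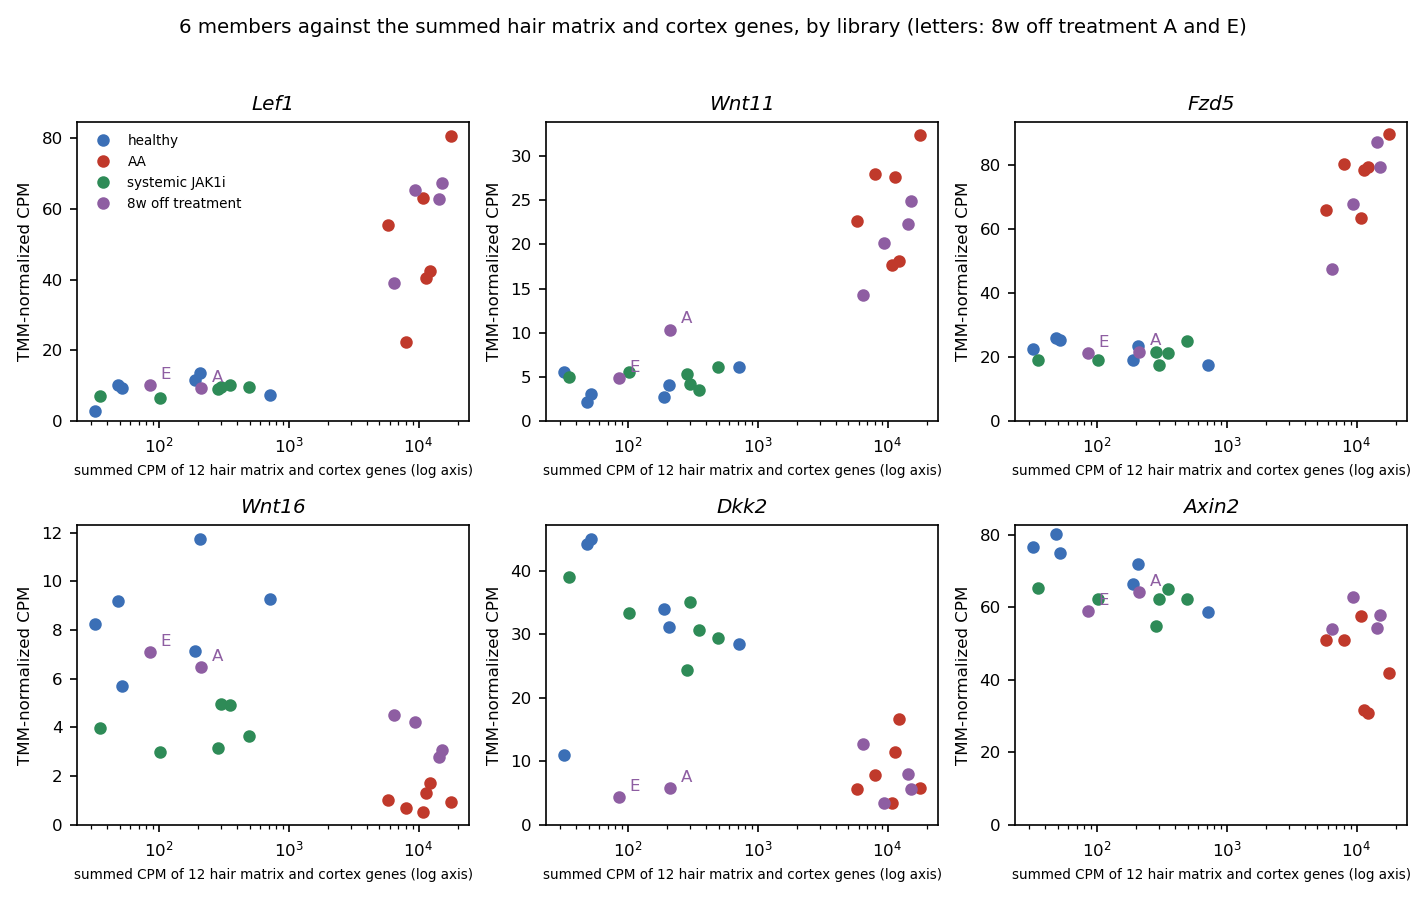
TMM-normalized CPM of 6 members (y axes) against the summed CPM of 12 hair matrix and cortex genes (log x axis) in 24 libraries, coloured by group; letters mark 8w off treatment A and E. Lef1, Wnt11 and Fzd5 are high in the libraries with sums of 5822 CPM or more, while Dkk2 is low in A and E although their sums are low.

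Under systemic JAK1i 41 of the 43 tested members did not pass against healthy skin, which does not show that they were equal. The count depended on healthy library F: without it 7 members passed, and without systemic JAK1i B, C or D it was 1, 0 and 1. With healthy A and E left out 0 passed. At an unadjusted p below 0.05 it was 10 members. Shares of all genes are not set beside these counts under other settings, so they are not results about the members. The largest estimate short of the threshold was that of Wnt2 (log2 fold change -1.54 ± 0.46, adjusted p = 0.089), where all systemic JAK1i libraries lay below all healthy ones, followed by Sfrp4 (log2 fold change 1.38 ± 0.54, adjusted p = 0.19).

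Genes of the pathway outside the 50 were counted in 6 lists, to be read beside the shares of all genes called, 20.9% higher and 19.3% lower in AA minus healthy and 22.9% higher and 24.8% lower in systemic JAK1i minus AA. Of 11 genes for the secretion of Wnt proteins and for R-spondins, which raise Frizzled levels at the surface, 2 were higher and 3 lower in AA than in healthy skin. Porcn, the enzyme that attaches the lipid to Wnt proteins, had means of 9.27 ± 3.16 CPM in healthy skin, 28.96 ± 4.998 CPM in AA skin, 8.08 ± 1.93 CPM under systemic JAK1i and 22.4 ± 6.05 CPM at 8w off treatment (log2 fold change 1.64 ± 0.2, adjusted p = 3.4e-06 in AA). Lgr6, an R-spondin receptor of skin stem cells, had means of 42.7 ± 13.5 CPM in healthy skin, 14.4 ± 2.64 CPM in AA skin, 38.3 ± 6.12 CPM under systemic JAK1i and 20.8 ± 5.82 CPM at 8w off treatment (log2 fold change -1.55 ± 0.21, adjusted p = 6.4e-06 in AA). In 9 tested genes of further extracellular and membrane inhibitors 0 were higher and 2 lower in AA, and these were Apcdd1, with means of 126 ± 21.5 CPM in healthy skin, 73.02 ± 10.2 CPM in AA skin, 118 ± 16.5 CPM under systemic JAK1i and 70.6 ± 16.2 CPM at 8w off treatment (log2 fold change -0.79 ± 0.14, adjusted p = 0.00014), and Dkkl1, with means of 30.8 ± 8.77 CPM in healthy skin, 18.1 ± 8.01 CPM in AA skin, 25.8 ± 4.7 CPM under systemic JAK1i and 12.6 ± 4.11 CPM at 8w off treatment (log2 fold change -0.78 ± 0.25, adjusted p = 0.017).

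Of 14 genes of the destruction complex and the Dishevelled proteins 4 were higher and 2 lower in AA, which became 4 and 3 with upper-quartile scaling, 0 and 1 on uncentred TPM and 2 and 3 on centred TPM. Csnk1e, a casein kinase, was higher (log2 fold change 0.8 ± 0.1, adjusted p = 3.6e-06), and Btrc, which marks β-catenin for breakdown, was lower (log2 fold change -0.68 ± 0.15, adjusted p = 0.00096). Among 12 nuclear cofactors 3 were higher and 2 lower, or 2 and 3, 0 and 1, and 2 and 2 under the same scalings, with the co-repressor Tle3 higher (log2 fold change 0.57 ± 0.1, adjusted p = 9.2e-05) and Pygo1, a partner of β-catenin, lower (log2 fold change -1.07 ± 0.21, adjusted p = 0.00034). Of 14 tested further target genes 4 were higher and 0 lower in AA (Cd44, Bambi, Msx2 and Foxn1), beside 20.9% and 19.3% of all genes, and 0 were higher and 6 lower under systemic JAK1i than in AA, beside 22.9% and 24.8%. Msx2 and Foxn1 also stand in the hair matrix list. Cd44, a surface receptor for hyaluronan, had means of 292 ± 44.1 CPM in healthy skin, 473 ± 71.8 CPM in AA skin, 232 ± 16.7 CPM under systemic JAK1i and 425 ± 48.7 CPM at 8w off treatment (log2 fold change 0.7 ± 0.1, adjusted p = 2e-05 in AA, log2 fold change -1.03 ± 0.1, adjusted p = 2.8e-07 for systemic JAK1i minus AA). Foxn1, a hair keratin regulator, had means of 10.5 ± 3.11 CPM in healthy skin, 31.8 ± 9.25 CPM in AA skin, 8.87 ± 1.87 CPM under systemic JAK1i and 32.1 ± 12.4 CPM at 8w off treatment (log2 fold change 1.59 ± 0.24, adjusted p = 3.1e-05 in AA). Of 12 genes of the planar polarity and Ror branch 5 were higher and 1 lower in AA, beside 20.9% and 19.3% of all genes, and 0 higher and 8 lower under systemic JAK1i than in AA, beside 22.9% and 24.8%. The other lists went both ways in systemic JAK1i minus AA. Secretion and R-spondin genes split 3 higher and 3 lower, and further inhibitors 1 and 2. Destruction complex and Dishevelled genes split 2 and 4, and nuclear cofactors 2 and 4. Celsr2 and Vangl2, core planar polarity proteins, were higher in AA (log2 fold change 0.5 ± 0.14, adjusted p = 0.0072 and log2 fold change 0.52 ± 0.15, adjusted p = 0.007) and lower under systemic JAK1i than in AA (log2 fold change -0.78 ± 0.14, adjusted p = 0.00012 and log2 fold change -0.68 ± 0.15, adjusted p = 0.00066). Under the other scalings the planar polarity split in AA was 4 and 1 (upper quartile), 0 and 0 (uncentred TPM) and 1 and 2 (centred TPM), and in systemic JAK1i minus AA it was 1 and 8, 3 and 0, and 1 and 7. For the further target genes it was 4 and 0, 3 and 0, and 4 and 0 in AA, and 0 and 5, 1 and 2, and 0 and 5 in systemic JAK1i minus AA. Against healthy skin 0 genes of these 6 lists passed under systemic JAK1i, and 0 passed between 8w off treatment and AA. The median log2 fold changes of the lists in AA ran from -0.12 to 0.24, beside 0.0011 for all genes.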

How the data were processed

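Total RNA of 24 skin samples was sequenced as pairs of 76 bases. The kit was a stranded total RNA kit, used without fragmentation because the RNA was degraded, while the labels also name poly-A RNA. The authors aligned the reads to mm10/GRCm38 with HISAT2 2.0.1 and counted them per gene with featureCounts 1.4.4, whose strand setting is not given in the sources used here. The deposited tables hold raw counts and TPM of 39017 gene IDs. The tool that made the deposited TPM is not given in the sources used here, and 6 columns in each table belong to no sample analysed here and were not used. Symbols came from GENCODE M21, for 37607 IDs.

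Counts were analysed in R 4.3.3 with edgeR 4.0.16. filterByExpr (minimum count 10) kept 16248 genes, TMM factors were set, and 1 quasi-likelihood fit over 24 libraries in 4 groups gave 6 comparisons and a test over all groups, each adjusted by Benjamini and Hochberg over all genes. Standard errors came from the fitted information and the moderated dispersion. Alternatives were RLE and upper-quartile scaling, no filter or at least 20 counts in 6 libraries, DESeq2 1.42.0, limma 3.58.1 (voom), log2 TPM with pseudocounts 0.1 and 1, centred TPM, a fit of the compared groups alone, a replicate block, and leaving out libraries. The test was tried on simulated data. Within each group no libraries were duplicates of each other, and pairs across groups were not checked for this.

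The members and lists were chosen with earlier results of these data known. Values by library are given for the 16 members with the smallest p over the 4 groups, for every ligand past a test, and for Lef1, Axin2 and Ctnnb1. Companion genes named are the 2 of smallest p per list. Depth was 3444193 to 11233020 counts per library, and the limits stated for counts of 0 (3 counts over the group) cover counting error only.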

Additional observations from a re-analysis of the deposited data

Results flagged for a closer look

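In 92 groups of 6 libraries (23 members in 4 groups) a library was set against the other 5, and 11 had a gap to its neighbour above Dixon's 95% limit, which chance passes in about 1 group in 20. Healthy B gave 4 of them, at 72.2 CPM of Fzd10 (the other 5 at 25.4 to 40.2), 160 CPM of Lrp5 (97.7 to 112), 66.1 CPM of Wnt4 (33.3 to 38.4) and 22.7 CPM of Wnt2 (4.93 to 7.69). In AA skin Sfrp1 was 92 CPM in library C (69 to 75.6 in the others) and Wnt4 was 63.2 CPM in library F (38.5 to 47.5). Under systemic JAK1i Fzd10 was 21.3 CPM in A (28.4 to 32), Axin2 was 54.8 CPM in D (62.3 to 65.4), Fzd3 was 35.4 CPM in E (24.4 to 28.1) and Lrp5 was 132 CPM in F (95 to 107). At 8w off treatment Wnt10a was 38.9 CPM in A (28.9 to 32.2). Without healthy B 20 members differed between AA and healthy skin in place of 19, with Fzd7, Lrp5, Sfrp2 and Wnt4 added and Wnt3, Wnt6 and Wnt7b lost.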

How the results depend on the processing

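The sense of the 78 called differences held under RLE and upper-quartile scaling, DESeq2, voom, other filters, left-out libraries, the replicate block and centred TPM, although some passed no longer. On uncentred TPM, where the median gene itself moved, 21 reversed, against 0 with each library centred on its median gene. Values with pseudocounts 0.1 (with or without a filter) and 1 were, for AA minus healthy, Sfrp1 -0.03466 and -0.02191. For systemic JAK1i minus AA they were Wnt4 0.2723 and 0.2336, Ctnnb1 0.2642 and 0.2605, Tcf7 0.04138 and 0.01205, Fzd6 0.3008 and 0.2769, Axin1 0.4502 and 0.3909, and Lrp5 0.3313 and 0.3009. For 8w off treatment minus healthy they were Fzd6 -0.4397 and -0.3944, Wnt10b -0.09516 and -0.03027, Lrp5 -0.4052 and -0.3602, and Tcf7l2 -0.462 and -0.4021. For 8w off treatment minus systemic JAK1i they were Wnt6 -0.5115 and -0.2434, Wnt10a -0.4599 and -0.3627, Wnt4 -0.5913 and -0.5053, Fzd10 -0.4245 and -0.3472, Wif1 -0.2675 and -0.02409, Sfrp1 -0.502 and -0.4175, Tcf7 -0.7386 and -0.4797, Wnt10b -0.3852 and -0.2125, Axin1 -0.8508 and -0.7475, and Lrp5 -0.6662 and -0.6015. Counts of members called were, with the pseudocounts 0.1, 1, and 0.1 without a filter, 11, 12 and 9 for AA minus healthy, 26, 26 and 21 for 8w off treatment minus healthy, and 32, 30 and 34 for 8w off treatment minus systemic JAK1i. For systemic JAK1i minus healthy the count was 5 with DESeq2, 10 with voom, 0 on TPM with pseudocount 0.1 with or without a filter, 1 on centred TPM, and 0 without healthy A and E. For 8w off treatment minus AA it was 2 with DESeq2, 2 with voom, 2 on TPM with pseudocount 0.1 and 0 without a filter. Leaving out 1 library gave 16 to 21 members for AA minus healthy, 20 to 25 for systemic JAK1i minus AA, 0 to 7 for systemic JAK1i minus healthy, 11 to 15 for 8w off treatment minus healthy, 1 to 2 for 8w off treatment minus AA (2 without AA D or AA F), 17 to 21 for 8w off treatment minus systemic JAK1i, and 22 to 30 for any difference. Shares of all genes called are given only for the main fit. Counts of members under other settings or with libraries left out are therefore not results about the members. The cause of these changes was not tested.

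Same letters showed no clear pairing: deviations of same-letter libraries correlated at -0.237 to 0.414, with at most 2 of 6 above 0.1 in any pair of groups, and at most 2 of 6 matched their own letter best. Low correlation cannot settle whether a letter marks the same mouse, since the libraries within a group also differed in their marker sums. With the replicate block 16 members were called for AA minus healthy, 23 for systemic JAK1i minus AA, 2 for systemic JAK1i minus healthy, 13, 1 and 18 for 8w off treatment minus healthy, AA and systemic JAK1i, and 25 for any difference. The 7 members with the fewest counts could not be tested at this depth.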
